A study of Mus musculus with 24 samples.

Results

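The comparison described is that of the rep2 with the rep1 libraries of RN2 cells at day 0, before any doxycycline was given. It holds 12 of the 24 libraries of the series, chosen by their labels alone: 6 rep2 libraries and 6 rep1 libraries, 1 of each from every clone, which gives 6 pairs. RN2 is a line of murine acute myeloid leukaemia cells with the genotype Mll-Af9 and NrasG12D, which every library in both groups shares. All cells had also been transduced with a retroviral vector holding a doxycycline-inducible hairpin, which was labelled untreated, and so not induced, at day 0. The clones were shOgdh346 clones 1 and 5 and shOgdh2081 clones 3 and 5, against Ogdh, and shRen713 clones 2 and 7, the control hairpin. Each is a clonal isolate of a single cell line, so that 2 clones stand for each hairpin. The remaining 12 libraries hold rep2 and rep1 of the same clones at day 4 of doxycycline and serve here for comparison.

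The labels give the rep number and nothing on what it stands for. Culture, harvest day, handling, RNA extraction and library preparation of the rep sets cannot be told apart. If each rep number was 1 occasion, the 6 pairs share it, so that p-values below describe how alike the difference was over 6 clones and not over repeated occasions. Cells were kept in RPMI with serum, per the labels.

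As background, cells in culture change their transcripts with the state of the medium and with handling. Immediate early genes, such as the AP-1 factors Jun and Atf3 and the Krüppel-like factors, are induced within minutes by growth factors or stress. Txnip and its relatives are induced by glucose through the MondoA and ChREBP factors and their partner Mlx, glycolytic genes by hypoxia-inducible factors, amino acid transporters and synthetases by ATF4, and sterol genes by the SREBP factors. In MLL-fusion leukaemia, MYC and the self-renewal factors are held high by the fusion protein.

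Total counts ran from 7734151 to 10995323 in the rep2 libraries and from 7275680 to 18718239 in the rep1 libraries at day 0. Levels are CPM, the counts scaled to a common library size. Genes were tested by the quasi-likelihood test of edgeR with the clone as a block, which gives each adjusted p (Benjamini-Hochberg, over all genes tested), and changes are log2 rep2 minus rep1 over 6 clones. The markers of myeloid cells were present: the summed level of the primary granule list was 11650 to 15010 CPM in rep2 and 12940 to 17090 CPM in rep1.

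Rep2 differed from rep1 at day 0 in 5019 of 11331 genes tested (44.3%). Of these, 2481 (21.9%) were higher in rep2 and 2538 (22.4%) were lower. In a fit that ignored which clone the libraries came from, 1104 were higher and 895 lower. Most changes were small, with a median absolute log2 change of 0.23 among the genes called. Calls varied with level. In the highest of 5 equal bins of mean CPM at day 0 (114.6 CPM or more), 40.2% of genes were lower and 19.3% higher. In the lowest bin (7.73 CPM or less) 13.9% were lower and 15.4% higher. Shares of lists below are set beside all genes, which can differ from genes of like level. More than 2-fold higher in rep2 were 56 genes (0.494%), and 85 (0.75%) were more than 2-fold lower. The 6 rep2 libraries lay wholly above the 6 rep1 libraries for 618 genes (5.45%) and wholly below for 512 (4.52%). The rep number accounted for 13.8% of the variance of log2 CPM among day 0 libraries, clones for 77.7% and the rest for 8.46%.

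At day 4 the same contrast called 918 of 11794 genes (7.78%), of which 582 (4.93%) were higher and 336 (2.85%) lower in rep2, and the rep number accounted for 0.952% of the variance. The per-clone changes correlated across genes between every pair of clones at day 0, with r of 0.51 to 0.61, and between -0.023 and 0.14 at day 4. These are descriptions across genes, which are not independent, over clones that may share 1 occasion. Whether a gene's rep2 minus rep1 change differed between day 0 and day 4 was tested as an interaction over all 24 libraries. It passed for 3943 of 12273 genes (32.1%), and for 3403 of the 5019 genes called at day 0 (67.8%). Those 5019 were selected in day 0 libraries that also enter the interaction, so a higher share among them follows from the selection. Day and doxycycline treatment cannot be told apart in that interaction.

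**Figure D1:**
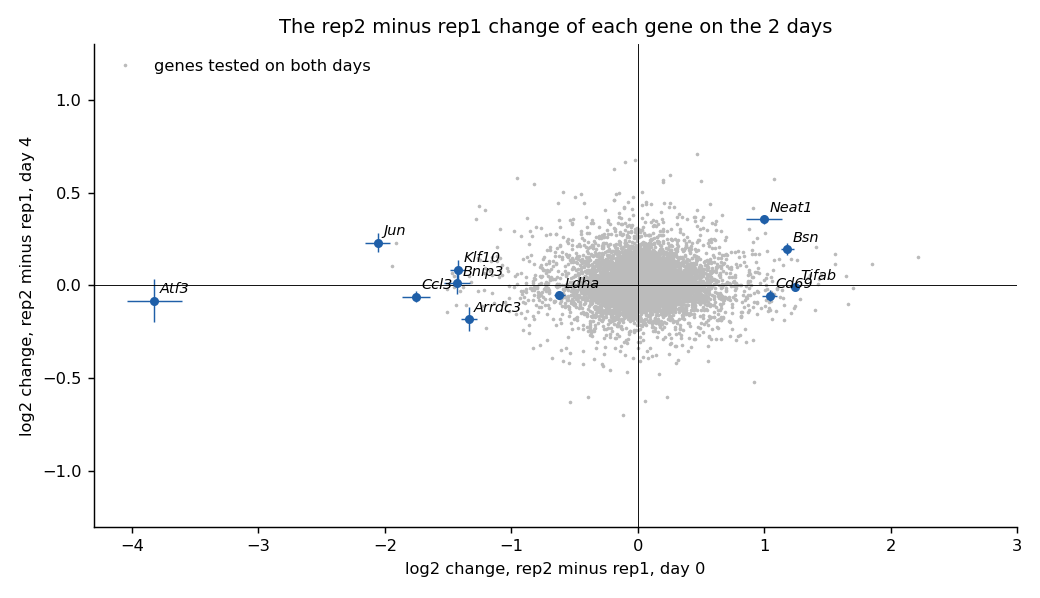
Each grey point is a gene tested on both days, with its log2 rep2 minus rep1 change at day 0 on the x axis and at day 4 on the y axis. Blue points with SE bars are genes labelled by name. Atf3 lies at -3.82 at day 0 and Tifab at 1.24, while at day 4 both lie within 0.1 of 0.

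Ogdh, the gene both Ogdh hairpins are directed against, encodes a subunit of the 2-oxoglutarate dehydrogenase complex of the tricarboxylic acid cycle. Its level at day 0 was 135 to 248 CPM in the rep2 libraries (median 191), against 125 to 245 CPM in the rep1 libraries (median 171), so that the groups overlapped. The change was 0.12 ± 0.038 (SE; adjusted p = 0.0156), higher in rep2 in 6 of 6 clones. In shOgdh2081 clone 3 it was 0.37 and in the other clones 0.026 to 0.12. Without that clone it was 0.066, with an edgeR adjusted p of 0.0845. With all 6 clones it was also not called in DESeq2 (adjusted p = 0.0524) or in edgeR with an offset for transcript length (adjusted p = 0.0621). At day 4 the change was 0.070 ± 0.028, and the interaction with day did not pass (adjusted p = 0.590).

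The immediate early genes held several of the largest falls in rep2. Of 28 list members tested, 17 fell and 3 rose, with a median log2 change of -0.37, beside -0.0079 over all genes tested; these shares of 60.7% and 10.7% stand beside 22.4% and 21.9% of all genes. Jun, a subunit of the AP-1 transcription factor, was at 7.02 to 10.4 CPM in the rep2 libraries (median 8.30), against 24.3 to 44.6 CPM in the rep1 libraries (median 34.2). No rep2 library reached the lowest rep1 library. The change was -2.06 ± 0.097 (SE; adjusted p = 9.21e-12), a level 4.16-fold lower in rep2. Atf3, a stress-induced repressor of the same leucine zipper family, was at 0.114 to 0.958 CPM in the rep2 libraries (median 0.365), against 3.17 to 8.43 CPM in the rep1 libraries (median 6.92). Its counts were low, 1 to 9 per library in rep2 and 31 to 109 in rep1, with sums of 24 and 397, and the groups did not overlap. Its change was -3.82 ± 0.22 (SE; adjusted p = 6.76e-13), lower in rep2 in 6 of 6 clones.

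Several Krüppel-like factors, zinc finger regulators of growth and quiescence, fell. Klf10, which is induced by TGF-beta, was at 20.8 to 34.97 CPM in the rep2 libraries (median 25.2), against 57.5 to 75.1 CPM in the rep1 libraries (median 70.95), without overlap. The change of Klf10 was -1.42 ± 0.059 (SE; adjusted p = 1.56e-14), that of its close relative Klf11 was -1.40 ± 0.070 (SE; adjusted p = 6.53e-14), that of Klf6 -1.26 ± 0.19 (SE; adjusted p = 0.00248) and that of Klf2, a quiescence factor, -1.09 ± 0.11 (SE; adjusted p = 2.74e-08). Over all 10 tested genes with a Klf symbol, a group formed after the values were seen, 7 fell and 1, Klf3 (0.43), rose, beside 22.4% lower and 21.9% higher over all genes.

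Other early genes moved less evenly. Dusp1, a phosphatase of stress kinases, changed by -1.16 ± 0.10 (SE; adjusted p = 2.46e-09) and Fosb, an AP-1 subunit, by -1.09 ± 0.11 (SE; adjusted p = 7.41e-09). Egr1, an early zinc finger factor, was at 2.27 to 19.9 CPM in the rep2 libraries (median 10.6), against 15.6 to 42.02 CPM in the rep1 libraries (median 22.1), and its change of -1.15 ± 0.30 (SE; adjusted p = 0.0294) was no longer called when shRen713 clone 7, shOgdh346 clone 5 or either shOgdh2081 clone was left out (adjusted p of 0.0650 to 0.0802). Fos and Junb, other subunits of AP-1, did not pass, at -0.13 ± 0.18, adjusted p = 0.604 and 0.075 ± 0.055, adjusted p = 0.277. The 3 members that rose were Myc, described below, and Dusp5 and Dusp6, phosphatases of ERK, with changes of 0.21 and 0.23. Genes of this paragraph were chosen after their values were seen.

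**Figure D2:**
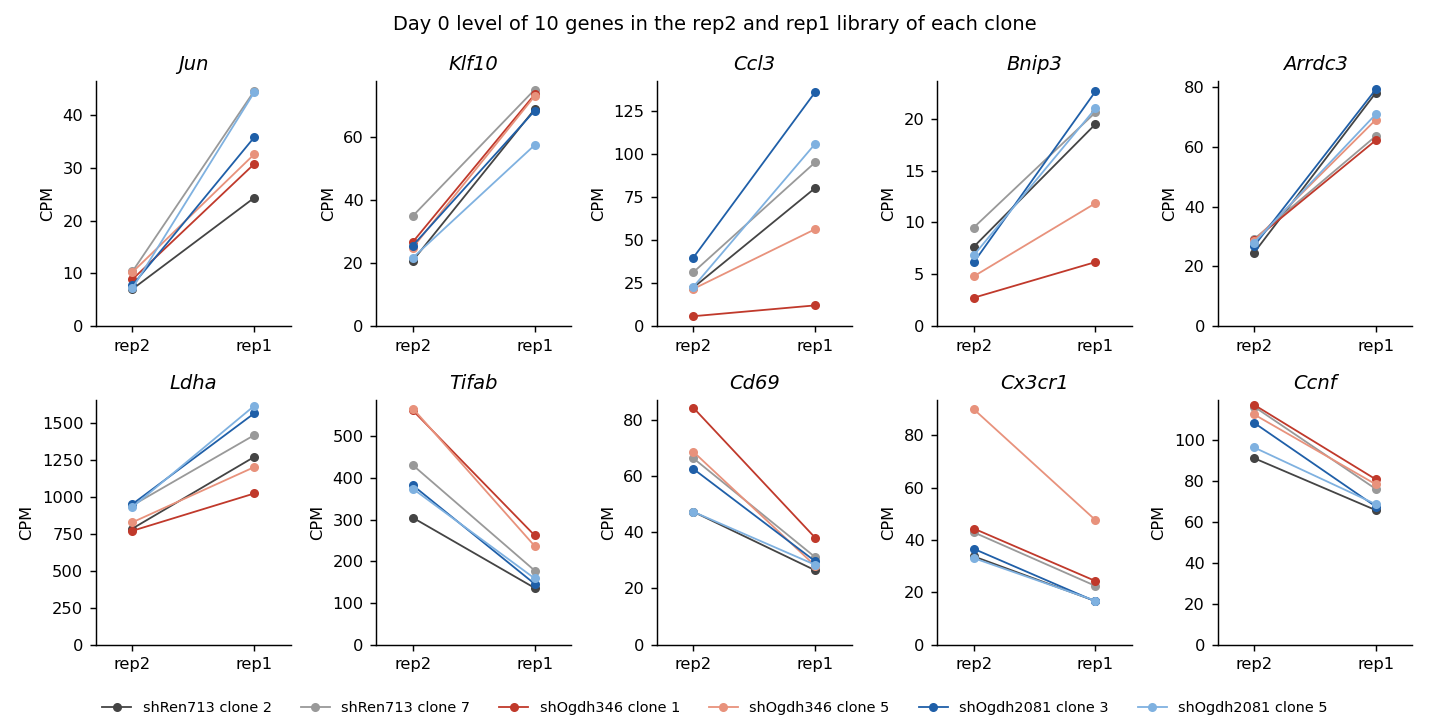
CPM at day 0 of 10 genes, with the rep2 library of each clone on the left and its rep1 library on the right, joined by a line per clone. Jun, Klf10, Ccl3, Bnip3, Arrdc3 and Ldha are lower and Tifab, Cd69, Cx3cr1 and Ccnf higher in rep2 in every clone.

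The promoters of 7 genes that fell and hold a match are shown so that the letters named beside the lists can be read in place; they were picked for the match and are no sample of the genes that fell. They are from RefSeq on GRCm38.p6, 250 bases before to 50 after the start, written 5′ to 3′ along the gene. Capitals mark a match on either strand: the letters searched were TGATGNAA for C/EBP-ATF, TGACATCA for the Jun-type AP-1 site, ACGTG for the hypoxia core and CACGTG for the E-box, which holds ACGTG within it.
Jun, chr4:95052173-95052472, minus strand: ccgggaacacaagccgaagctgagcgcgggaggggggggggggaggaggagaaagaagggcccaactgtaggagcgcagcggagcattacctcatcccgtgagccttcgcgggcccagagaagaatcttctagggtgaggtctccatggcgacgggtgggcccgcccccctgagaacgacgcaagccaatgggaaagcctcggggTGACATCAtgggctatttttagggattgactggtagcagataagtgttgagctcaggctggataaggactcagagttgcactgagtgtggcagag
Atf3, chr1:191183284-191183583, minus strand: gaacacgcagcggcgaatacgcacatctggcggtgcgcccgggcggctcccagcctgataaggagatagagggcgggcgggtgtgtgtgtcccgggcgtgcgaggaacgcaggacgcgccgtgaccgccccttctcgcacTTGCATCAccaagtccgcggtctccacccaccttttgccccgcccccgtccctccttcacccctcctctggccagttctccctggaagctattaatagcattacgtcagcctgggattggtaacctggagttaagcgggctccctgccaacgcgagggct
Trib3, chr2:152344011-152344310, minus strand: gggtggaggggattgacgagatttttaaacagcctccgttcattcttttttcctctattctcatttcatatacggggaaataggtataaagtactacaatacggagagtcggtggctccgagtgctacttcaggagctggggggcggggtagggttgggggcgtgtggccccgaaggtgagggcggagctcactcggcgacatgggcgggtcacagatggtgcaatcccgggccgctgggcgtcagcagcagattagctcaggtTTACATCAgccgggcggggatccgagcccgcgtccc
Bnip3, chr7:138909457-138909756, minus strand: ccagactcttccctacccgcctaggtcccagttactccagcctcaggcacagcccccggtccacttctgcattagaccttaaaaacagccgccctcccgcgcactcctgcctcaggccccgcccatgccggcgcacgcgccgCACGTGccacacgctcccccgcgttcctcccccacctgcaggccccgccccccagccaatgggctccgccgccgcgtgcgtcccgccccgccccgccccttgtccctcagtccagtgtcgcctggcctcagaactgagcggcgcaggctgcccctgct
Ldha, chr7:46845554-46845853, plus strand: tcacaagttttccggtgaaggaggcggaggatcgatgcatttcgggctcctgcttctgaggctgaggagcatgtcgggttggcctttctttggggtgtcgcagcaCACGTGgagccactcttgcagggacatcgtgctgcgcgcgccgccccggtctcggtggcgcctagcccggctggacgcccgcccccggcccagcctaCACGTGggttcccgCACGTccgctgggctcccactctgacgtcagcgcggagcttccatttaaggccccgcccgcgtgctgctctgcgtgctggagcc
Arrdc4, chr7:68749189-68749488, minus strand: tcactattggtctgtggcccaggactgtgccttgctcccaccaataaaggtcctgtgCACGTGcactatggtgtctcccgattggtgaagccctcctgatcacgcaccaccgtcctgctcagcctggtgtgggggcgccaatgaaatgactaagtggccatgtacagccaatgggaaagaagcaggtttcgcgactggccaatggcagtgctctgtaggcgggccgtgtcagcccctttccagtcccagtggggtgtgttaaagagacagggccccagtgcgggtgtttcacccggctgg
Ciart, chr3:95882179-95882478, minus strand: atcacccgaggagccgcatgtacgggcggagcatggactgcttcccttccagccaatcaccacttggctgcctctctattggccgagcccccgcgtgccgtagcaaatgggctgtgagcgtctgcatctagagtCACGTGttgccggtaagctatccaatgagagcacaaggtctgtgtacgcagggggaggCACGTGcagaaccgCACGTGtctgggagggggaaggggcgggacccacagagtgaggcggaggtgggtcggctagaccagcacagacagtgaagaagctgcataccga
The capitals are the Jun-type site in Jun, the C/EBP-ATF site in Atf3 and Trib3, the hypoxia core in Bnip3 and Ldha, and the E-box in Arrdc4 and Ciart.

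Of the 28 early genes tested, 21 had a promoter in the table. The Jun-type site was found in Jun and Klf6 (9.52%, beside 2.18% of the promoters of 8563 tested genes), both of which fell. Of the 19 without it 10 fell and 2 rose. The cyclic AMP element TGACGTCA was found in Btg2 and Dusp1 (9.52%, beside 3.81%), and TGANTCA, the common AP-1 site, in none of the 21 (beside 5.84%). A match is letters in a window, not a bound site.

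Among inflammatory genes, the chemokines Ccl3 and Ccl4, which draw monocytes and T cells, fell most. Ccl3 was at 5.68 to 39.6 CPM in the rep2 libraries (median 22.5), against 11.97 to 136 CPM in the rep1 libraries (median 87.5). The groups overlapped because shOgdh346 clone 1 was low in both, but Ccl3 was lower in rep2 in 6 of 6 clones, with a change of -1.75 ± 0.11 (SE; adjusted p = 4.52e-06). Ccl4 changed by -1.51 ± 0.21 (SE; adjusted p = 2.88e-04), and Lilr4b, an inhibitory receptor of myeloid cells, by -1.45 ± 0.22 (SE; adjusted p = 0.00350). Within shOgdh346 the change of Ccl4 was -0.56. Spp1, secreted osteopontin, changed by -1.02 ± 0.23 (SE; adjusted p = 0.0172), and without shOgdh2081 clone 5 by -0.95 (adjusted p = 0.0528). Gpnmb, a glycoprotein of macrophages, changed by -1.22 ± 0.18 (SE; adjusted p = 6.60e-05), and Iqcg, a calmodulin-binding protein, by -1.44 ± 0.16 (SE; adjusted p = 2.30e-07).

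In the NF-kB and chemokine list as a whole, 8 of 21 tested members fell (38.1%, beside 22.4% of all genes), and the median was -0.052. The 3 that rose (1 in DESeq2) were 14.3% of the list, beside 21.9% of all genes. Rel, an NF-kB subunit of blood cells, fell by 0.49 on the log2 scale, without overlap of the groups (adjusted p = 1.44e-09). Tnf, the inflammatory cytokine, went the other way, with a change of 0.65 ± 0.079 (SE; adjusted p = 2.63e-07).

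Of 6 glucose-sensing arrestins and their transcription factors tested 3 fell, each without overlap of the groups, and the median was -0.43. The other 3 did not pass. Over all genes 22.4% were lower, and 4.52% lay wholly below. Arrdc3, an alpha-arrestin that routes receptors for degradation, was at 24.6 to 29.1 CPM in the rep2 libraries (median 28.2), against 62.2 to 79.3 CPM in the rep1 libraries (median 70.04). Its change was -1.34 ± 0.062 (SE; adjusted p = 1.06e-12). Txnip, the thioredoxin-interacting arrestin that limits glucose uptake, was at 170.0 to 207 CPM in the rep2 libraries (median 189), against 290.3 to 342 CPM in the rep1 libraries (median 315), with a change of -0.73 ± 0.032 (SE; adjusted p = 8.06e-15). Arrdc4, their relative, changed by -1.05 ± 0.086 (SE; adjusted p = 1.23e-09). The E-box stood in Arrdc4 and Mlx, of the 6 promoters (33.3%, beside 12.2% of all).

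Glycolysis fell along most of its length. Of 23 members tested, 16 fell and 4 rose, with a median of -0.31. The shares lower and higher were 69.6% and 17.4%, beside 22.4% and 21.9% of all genes. In 6 members the groups did not overlap, beside 4.52% of all genes wholly below and 5.45% wholly above. Ldha, which makes lactate from pyruvate, was at 772 to 953 CPM in the rep2 libraries (median 881), against 1025 to 1620 CPM in the rep1 libraries (median 1347), without overlap. Its change was -0.62 ± 0.044 (SE; adjusted p = 4.06e-07). Slc16a3, the lactate exporter MCT4, was at 30.5 to 64.8 CPM in the rep2 libraries (median 39.2), against 41.9 to 152 CPM in the rep1 libraries (median 108), and changed by -1.07 ± 0.18 (SE; adjusted p = 0.00554).

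Within the pathway, the change was -0.75 for Pgk1, which makes ATP from bisphosphoglycerate, -0.52 for the enolase Eno1, -0.33 for Gapdh and -0.29 for the pyruvate kinase Pkm. Each passed, with an adjusted p of at most 8.69e-05. Aldoc, the aldolase known from brain, changed by -1.47 ± 0.19 (SE; adjusted p = 5.95e-07). Its levels were low, 0.177 to 3.09 CPM in the rep2 libraries and 0.553 to 10.6 CPM in the rep1 libraries, and the groups overlapped. In 1 of 6 clones, shRen713 clone 2, Aldoc was higher in rep2 (0.14). The 4 that rose were the hexokinases Hk2 (0.17) and Hk3 (0.20) and the fructose-bisphosphate regulators Pfkfb3 (0.23) and Pfkfb4 (0.18). Pgk1, Aldoc and those 4 were chosen after their values were seen.

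Hypoxia genes outside glycolysis followed the same direction, with 13 of 17 tested lower, 1 higher (Car9, 0.16, named after its value was seen and not called in DESeq2) and a median of -0.25. The shares lower and higher were 76.5% and 5.88%, beside 22.4% and 21.9% of all genes. Bnip3, a mitophagy receptor, was at 2.73 to 9.50 CPM in the rep2 libraries (median 6.48), against 6.17 to 22.7 CPM in the rep1 libraries (median 20.1). The groups overlapped through shOgdh346 clone 1, which was lowest in both, and Bnip3 fell in 6 of 6 clones by 1.43 on the log2 scale (adjusted p = 3.03e-11). Pdk1, the kinase that holds back pyruvate entry into mitochondria, changed by -0.78 ± 0.046 (SE; adjusted p = 4.57e-12), without overlap. The core ACGTG stood in 12 of 14 promoters of the hypoxia list (85.7%) and in 15 of 22 of the glycolysis list (68.2%), beside 30.1% of all. With the letters, 9 of 12 hypoxia and 11 of 15 glycolysis genes fell; without them, 2 of 2 and 5 of 7 fell.

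The amino acid response was lower too. Of 40 members tested 28 fell (70%, beside 22.4% of all genes) and 3 rose (7.5%, beside 21.9%), with a median of -0.14. Besides Atf3, Trib3, a pseudokinase that damps ATF4 output, was at 5.01 to 9.63 CPM in the rep2 libraries (median 7.22), against 7.57 to 22.2 CPM in the rep1 libraries (median 15.6), and changed by -1.15 ± 0.14 (SE; adjusted p = 1.18e-05). Ddit3, the stress factor CHOP, changed by -0.51 ± 0.081 (SE; adjusted p = 1.25e-05). The transporter subunits Slc3a2 and Slc7a11, which together import cystine, changed by -0.41 ± 0.032 (SE; adjusted p = 1.85e-10) and -0.70 ± 0.080 (SE; adjusted p = 5.38e-07). Most aminoacyl-tRNA synthetases of the list moved by less than 0.3.

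Against that direction, Cebpg, a leucine zipper partner of ATF4, rose by 0.60 (adjusted p = 1.72e-08), without overlap of the groups. It was joined by Slc38a2, an amino acid transporter, at 0.25 and Cebpb at 0.20. Trib3, Ddit3 and these 3 were chosen after their values were seen. The C/EBP-ATF letters shown above stood in 14 of 33 promoters of the list (42.4%, beside 2.83% of all). Of those 14, 10 fell, and of the 19 without them 12 fell and 3 rose.

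Lipid synthesis fell in both its branches. Of 24 sterol genes tested 16 fell (66.7%, beside 22.4% of all genes), and the other 8 did not pass, with a median of -0.24. Of 13 fatty acid genes 11 fell (84.6%) and the other 2 did not pass, with a median of -0.27. In the fit that ignored the clone, 2 of the 24 and 1 of the 13 were called lower. Insig1, the sterol sensor that retains SREBP in the endoplasmic reticulum, was at 63.2 to 140.2 CPM in the rep2 libraries (median 106), against 113 to 217 CPM in the rep1 libraries (median 177). The groups overlapped between clones, yet the change of -0.73 ± 0.042 (SE; adjusted p = 1.33e-11) had the same sign in 6 of 6. Nsdhl, a late sterol enzyme, changed by -0.54 ± 0.049 (SE; adjusted p = 2.91e-09).

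Srebf1, the factor that drives fatty acid genes, changed by -0.42 ± 0.040 (SE; adjusted p = 5.34e-08), and Acly, which makes cytosolic acetyl-CoA, by -0.31 ± 0.027 (SE; adjusted p = 1.49e-09). Scd2, a fatty acid desaturase named after its value was seen, was at 361 to 1279 CPM in the rep2 libraries (median 660.4), against 667 to 1573 CPM in the rep1 libraries (median 1174), with a change of -0.77 ± 0.15 (SE; adjusted p = 0.0107). Of 8 genes of sterol efflux tested, 4 fell (50%, beside 22.4% of all genes) and 1 rose (12.5%, beside 21.9%). Apoe, the apolipoprotein, changed by -0.60 ± 0.083 (SE; adjusted p = 2.04e-06). The sterol element letters TCACNCCAC stood in 1 of 17 promoters of the sterol list, that of Hmgcs1, which did not pass.

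Folding genes fell by a smaller and more even amount. In the endoplasmic reticulum list 16 of 20 fell, beside 22.4% of all genes, and the other 4 did not pass, with a median of -0.19. In 9 of the 20 the groups did not overlap, beside 4.52% wholly below and 5.45% wholly above over all genes. Hspa5, the chaperone BiP, was at 1056 to 1226 CPM in the rep2 libraries (median 1154), against 1311 to 1533 CPM in the rep1 libraries (median 1455), with a change of -0.33 ± 0.024 (SE; adjusted p = 3.43e-11). Herpud1, a part of the degradation machinery, changed by -0.41 ± 0.037 (SE; adjusted p = 2.57e-09). Of 16 cytosolic heat shock genes 12 fell and the other 4 did not pass, with a median of -0.12.

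Clock genes fell on the whole, with 8 of 14 lower, 1 higher and a median of -0.25. These shares of 57.1% and 7.14% stand beside 22.4% and 21.9% of all genes. Ciart, a repressor of the CLOCK and BMAL1 pair, was at 3.62 to 5.00 CPM in the rep2 libraries (median 4.17), against 6.76 to 12.7 CPM in the rep1 libraries (median 10.6), without overlap. Its change was -1.25 ± 0.12 (SE; adjusted p = 4.28e-09). The 1 clock gene that rose was Arntl, which encodes BMAL1, by 0.39 (adjusted p = 3.91e-05; named after its value was seen). The E-box stood in 4 of 12 clock promoters (33.3%, beside 12.2% of all), those of Ciart, Cry1, Per1 and Tef, of which 3 fell. Of the 8 without it 4 fell and 1 rose. The time of day of the harvests is not given in the sources used here.

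**Figure D3:**
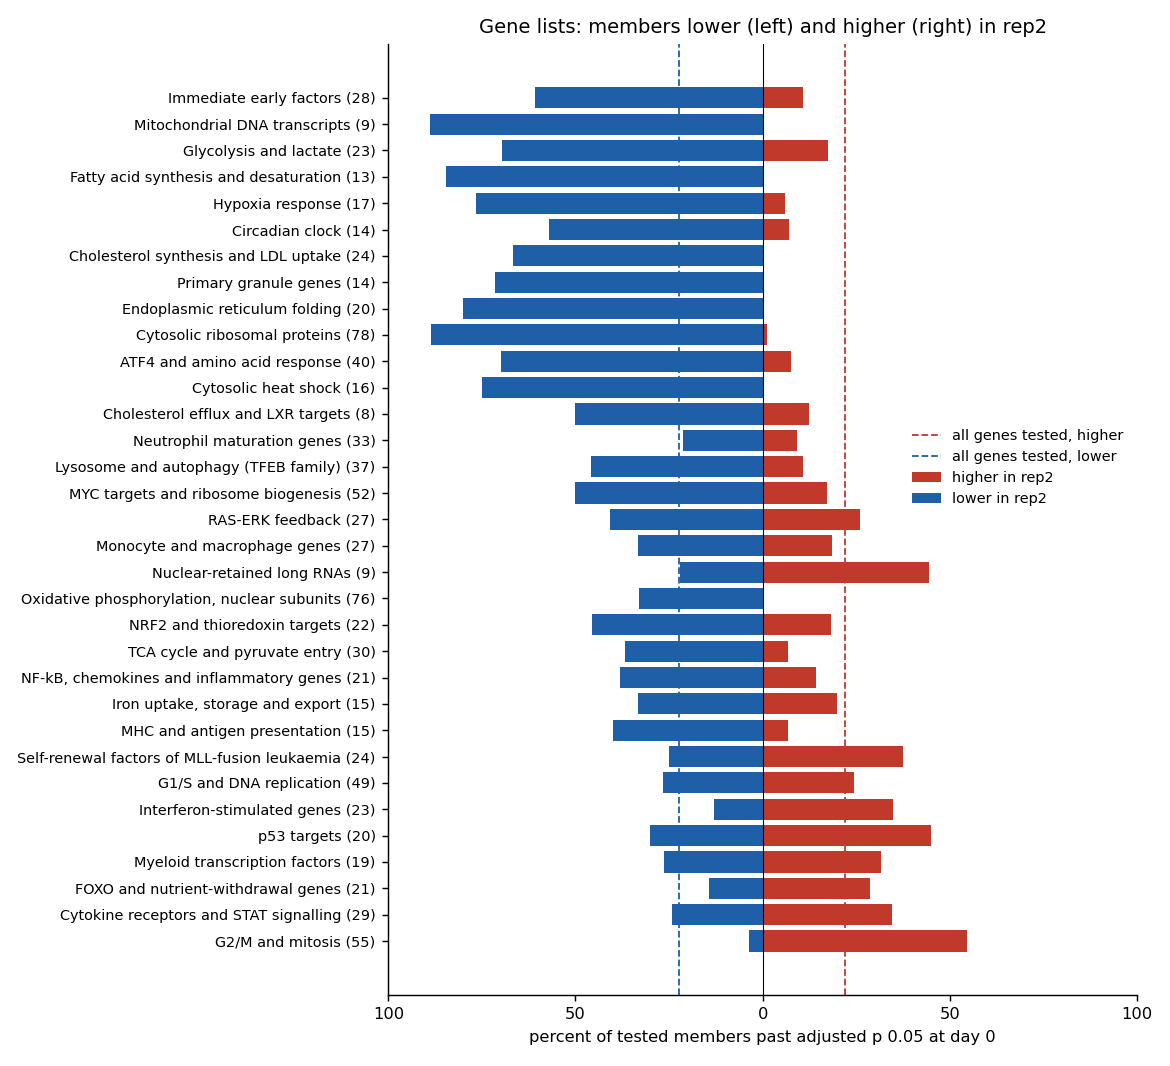
For 33 gene lists with at least 8 tested members, bars show the percent of tested members lower (left, blue) and higher (right, red) in rep2 at adjusted p under 0.05, and dashed lines the 22.4% and 21.9% over all genes. Ribosomal proteins have 88.5% of members lower, and the G2/M list 54.5% higher.

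Among genes that averaged 5 CPM or more, predicted models aside, the largest rise was that of Tifab, a relative of the TRAF-binding adaptor TIFA that modulates innate signalling in blood progenitors. Tifab was at 305 to 567 CPM in the rep2 libraries (median 407), against 136 to 262 CPM in the rep1 libraries (median 168). The lowest rep2 library exceeded the highest rep1 library, and the change was 1.24 ± 0.032 (SE; adjusted p = 6.43e-20), a level 2.36-fold higher. Map3k1, a kinase at the head of the JNK and ERK cascades, was at 53.9 to 66.04 CPM in the rep2 libraries (median 62.2), against 27.4 to 32.2 CPM in the rep1 libraries (median 31.3), and changed by 1.01 ± 0.046 (SE; adjusted p = 1.39e-14). Cd69, an early activation receptor of leukocytes, was at 47.2 to 84.2 CPM in the rep2 libraries (median 64.4), against 26.4 to 38.01 CPM in the rep1 libraries (median 29.00), with a change of 1.04 ± 0.058 (SE; adjusted p = 2.80e-12). In all 3 genes the groups did not overlap. Rarer transcripts, which the naming rule passes over, rose further, among them the zinc finger gene Zfp712 (1.45, adjusted p = 3.62e-05), named after its value was seen.

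Bsn, whose product bassoon is known from synapses, was at 60.01 to 92.2 CPM in the rep2 libraries (median 77.3), against 31.1 to 39.95 CPM in the rep1 libraries (median 32.9) and changed by 1.18 ± 0.052 (SE; adjusted p = 9.82e-15). G2e3, a ubiquitin ligase of G2 phase, changed by 1.13 ± 0.059 (SE; adjusted p = 1.56e-13), and Ptgir, the prostacyclin receptor, by 1.02 ± 0.082 (SE; adjusted p = 2.02e-09). Among rises of over 2-fold in genes that averaged 5 to 25 CPM were those of the zinc finger genes Zfp60 (1.15) and Zfp52 (1.04), Gpr171 (1.06), the galactosyltransferase B3galt5 (1.05), the chloride channel Cftr (1.05), Tmem150b (1.04) and D11Wsu47e (1.04). Each of these 7 had an adjusted p of at most 3.19e-06 and was higher in rep2 in 6 of 6 clones. Of 346 genes with a Zfp, Zscan, Zkscan or Zbtb symbol, a group formed after the values were seen, 118 rose (34.1%, beside 21.9% of all) and 63 fell (18.2%), with a median of 0.11.

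Myc, the growth regulator on which MLL-fusion leukaemia depends, was at 176 to 233 CPM in the rep2 libraries (median 224), against 85.1 to 132 CPM in the rep1 libraries (median 113). The groups did not overlap, and the change was 0.96 ± 0.11 (SE; adjusted p = 9.05e-04), higher in rep2. Myc was named after its value was seen. Of 52 MYC targets and ribosome biogenesis genes tested, 26 fell and 9, Myc among them, rose, with a median of -0.087. The share lower was 50%, beside 22.4% of all genes, and the share higher 17.3%, beside 21.9%. Among genes of 114.6 CPM or more, 40.2% were lower and 19.3% higher. The count that rose was 5 in DESeq2 and without shRen713 clone 2, and 4 without shRen713 clone 7. Odc1, the polyamine enzyme and a known MYC target, changed by -0.42 ± 0.032 (SE; adjusted p = 1.05e-10) and Nop58, a small nucleolar RNP protein, by -0.25 ± 0.027 (SE; adjusted p = 5.02e-08).

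Of 29 cytokine receptor and STAT genes tested 10 rose (34.5%, beside 21.9% of all genes) and 7 fell (24.1%, near the 22.4% of all genes). The interleukin 6 receptor chains Il6ra and Il6st, the second named after its value was seen, changed by 0.39 ± 0.044 (SE; adjusted p = 8.35e-08) and 0.55 ± 0.071 (SE; adjusted p = 7.49e-07). Pim1, a survival kinase induced by STAT factors, went down instead, at 6.58 to 11.6 CPM in the rep2 libraries (median 7.07), against 12.9 to 22.7 CPM in the rep1 libraries (median 15.97), with a change of -1.03 ± 0.084 (SE; adjusted p = 4.81e-10). The RAS-ERK list had 7 of 27 higher (25.9%) and 11 lower (40.7%), and 7 were lower in DESeq2 and without shOgdh2081 clone 5. Dusp7, an ERK phosphatase, changed by 0.47 ± 0.051 (SE; adjusted p = 4.36e-08) and Spry1, an ERK inhibitor near the limit of detection and chosen after its value was seen, by -1.16 ± 0.27 (SE; adjusted p = 0.00109).

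Mitotic genes were higher. Of 55 G2/M members tested 30 rose, and 2, Cks2 (-0.15) and Cdk1 (-0.11), named after their values were seen, fell. The median was 0.11. Ccnf, the F-box cyclin of G2, was at 90.95 to 117 CPM in the rep2 libraries (median 110.3), against 65.5 to 80.6 CPM in the rep1 libraries (median 72.2), without overlap, and changed by 0.56 ± 0.037 (SE; adjusted p = 1.06e-11). Aspm, a spindle pole protein, changed by 0.55 ± 0.039 (SE; adjusted p = 3.17e-11) and Kif20b, a kinesin of cytokinesis, by 0.49 ± 0.038 (SE; adjusted p = 1.72e-10). The 27 members with the longer transcripts (median 6855 bases) had 18 rises and the other 28 (median 3295 bases) had 12. Of 49 genes of G1/S and replication 12 rose (24.5%) and 13 fell (26.5%), shares near the 21.9% and 22.4% of all genes.

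Ribosomal protein transcripts were lower, with 69 of 78 lower and 1 higher and a median of -0.15. Rpl4, of the large subunit, was at 2210 to 2415 CPM in the rep2 libraries (median 2293), against 2534 to 2725 CPM in the rep1 libraries (median 2652), without overlap, and changed by -0.20 ± 0.023 (SE; adjusted p = 1.22e-07). Rps15a, of the small subunit, changed by -0.24 ± 0.025 (SE; adjusted p = 1.62e-08). Ribosomal protein genes have many near-identical pseudogene copies, and how reads with several positions were counted is not given in the sources used here, so that single values are uncertain. Of 76 nuclear genes of oxidative phosphorylation 25 fell and the other 51 did not pass. The share lower was 32.9%, beside 22.4% of all genes and 40.2% of genes of 114.6 CPM or more. With an offset for transcript length 14 fell, in DESeq2 12, and without shRen713 clone 7 or shOgdh2081 clone 5 16.

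Transcripts of mitochondrial DNA fell more. Of 9 tested 8 fell (88.9%, beside 22.4% of all genes) and the other did not pass, with a median of -0.36. mt-Cytb, of complex III, was at 3791 to 4284 CPM in the rep2 libraries (median 4097), against 4724 to 5524 CPM in the rep1 libraries (median 5215), without overlap, and changed by -0.34 ± 0.023 (SE; adjusted p = 2.60e-11). mt-Nd4, of complex I, changed by -0.36 ± 0.034 (SE; adjusted p = 1.61e-07). Replication-dependent histones, whose messages lack a poly(A) tail and are mostly lost in poly(A) libraries, were tested for 4 of 34 members, and 3 fell. Hist1h1c, a linker histone, was at 7.88 to 14.2 CPM in the rep2 libraries (median 10.6), against 18.9 to 33.8 CPM in the rep1 libraries (median 20.3), and changed by -1.12 ± 0.084 (SE; adjusted p = 1.08e-10). Neat1, a nuclear-retained RNA chosen after its value was seen, was at 109 to 122 CPM in the rep2 libraries (median 117), against 47.8 to 88.00 CPM in the rep1 libraries (median 54.7), with a change of 1.00 ± 0.14 (SE; adjusted p = 0.00298).

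Measures of whole libraries moved with these lists. Mitochondrial genes took 1.86% ± 0.0998 of counts in rep2 and 2.19% ± 0.175 in rep1 (SD, n = 6 each). Ribosomal protein genes took 4.57% ± 0.135 in rep2 and 4.90% ± 0.278 in rep1, the 10 most abundant genes 3.82% ± 0.194 in rep2 and 4.26% ± 0.232 in rep1, and histones 0.00347% in rep2 and 0.00586% in rep1. Each was lower in rep2 in 6 of 6 clones. A two-sided exact permutation test over 64 sign patterns gave p = 0.03125 for each, the smallest it can give, and 0.0573 after adjustment over 11 measures.

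The mean length of the transcripts counted was higher in rep2 in 6 of 6 clones, 5775 ± 54.4 bases in rep2 and 5677 ± 53.5 bases in rep1, with the same exact p. By gene, 33.7% of protein-coding genes with transcripts of 5265 bases or more rose and 19.2% fell, while of those of 2031 bases or fewer 10.2% rose and 26.4% fell. With an offset for transcript length, 4527 of the 5019 genes were still called. The part of RNA quality, library preparation or sequencing in these lists was not tested. With the length offset the counts lower were 61 of 78 for ribosomal proteins and 17 of 23 for glycolysis, and 32 of 55 G2/M genes were higher.

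**Figure D4:**
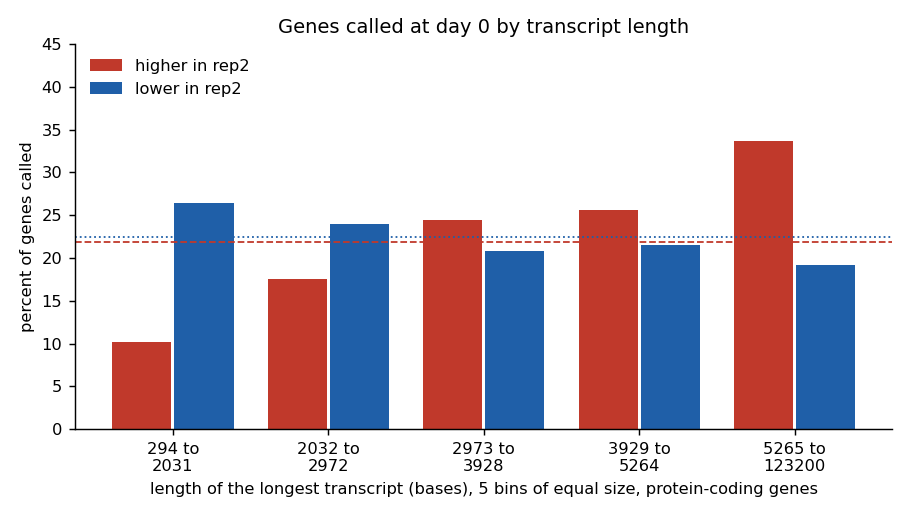
Percent of protein-coding genes higher (red) and lower (blue) in rep2 at day 0, in 5 equal bins of the length of the longest transcript in bases. Lines give the values over all genes tested, dashed for higher (21.9%) and dotted for lower (22.4%); the share higher is 10.2% in the bin of shortest and 33.7% in the bin of longest transcripts.

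Primary granule genes of the myeloid lineage were lower. Of 14 tested 10 fell (71.4%, beside 22.4% of all genes) and the other 4 did not pass, with a median of -0.19. With the length offset 7 were lower and 1 higher, and in the fit that ignored the clone 1 was lower. Srgn, the granule proteoglycan, changed by -0.26 ± 0.037 (SE; adjusted p = 2.33e-05) and Calr, a chaperone needed for myeloperoxidase, by -0.23 ± 0.023 (SE; adjusted p = 2.40e-08). Mpo, myeloperoxidase itself and named after its value was seen, was at 511 to 3109 CPM in the rep2 libraries (median 1177), against 489.8 to 3815 CPM in the rep1 libraries (median 1669), and its change of -0.40 ± 0.11 (SE; adjusted p = 0.0308) was no longer called when any 1 clone other than shOgdh2081 clone 3 was left out (adjusted p of 0.0584 to 0.0861).

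Of 33 neutrophil maturation genes 7 fell (21.2%, beside 22.4% of all genes) and 3 rose (9.09%, beside 21.9%), and without shRen713 clone 2 the count that rose was 1. Cxcr2, a chemokine receptor, was among the 3 (0.54 ± 0.12 (SE; adjusted p = 5.80e-04)), while Csf3r, the G-CSF receptor, changed by -0.30 ± 0.044 (SE; adjusted p = 4.97e-06). Of 27 monocyte genes 9 fell (33.3%) and 5 rose (18.5%). Cx3cr1, the fractalkine receptor of monocytes, was at 33.04 to 89.98 CPM in the rep2 libraries (median 39.7), against 16.5 to 47.6 CPM in the rep1 libraries (median 19.6). The groups overlapped through shOgdh346 clone 5, and Cx3cr1 was higher in rep2 in 6 of 6 clones, by 0.96 (adjusted p = 4.02e-13).

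Of 24 self-renewal factors of the leukaemia 9 rose (37.5%, beside 21.9% of all genes) and 6 fell, a share near the 22.4% of all genes. Of 19 myeloid transcription factors 6 rose (31.6%) and 5 fell (26.3%, also near it), and 3 fell without shRen713 clone 7, shOgdh346 clone 5 or either shOgdh2081 clone. Runx2, a runt factor, changed by -0.44 ± 0.039 (SE; adjusted p = 1.21e-08), Fli1, an ETS factor, by 0.35 ± 0.040 (SE; adjusted p = 1.28e-07) and Irf8, which directs monocyte and dendritic fate, by 0.31 ± 0.045 (SE; adjusted p = 2.78e-05). Among p53 targets 9 of 20 rose and 6 fell, beside 21.9% and 22.4% of all genes: the pro-apoptotic Pmaip1 and the growth-arrest gene Gadd45a changed by -0.72 ± 0.037 (SE; adjusted p = 9.02e-14) and -0.75 ± 0.072 (SE; adjusted p = 8.28e-09), and Phlda3, which inhibits AKT and was named after its value was seen, by 0.68 ± 0.14 (SE; adjusted p = 2.27e-04). Of 23 interferon-stimulated genes 8 rose (34.8%) and 3 fell, and in DESeq2 4 rose and 1 fell, with Parp14 at 0.57 ± 0.084, adjusted p = 8.87e-06.

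The lists not yet described stand beside 22.4% lower and 21.9% higher over all genes. Of genes of 114.6 CPM or more, 40.2% were lower. NRF2 targets had 10 of 22 lower (6 without shRen713 clone 7) and 4 higher. Lysosome and autophagy genes had 17 of 37 lower and 4 higher (2 in DESeq2). Tricarboxylic acid cycle genes had 11 of 30 lower (7 without shOgdh346 clone 5) and 2 higher, and antigen presentation genes 6 of 15 lower and 1 higher. FOXO targets had 6 of 21 higher (3 in DESeq2) and 3 lower, iron genes 3 of 15 higher and 5 lower, and nuclear-retained long RNAs 4 of 9 higher and 2 lower. Markers of other blood cells were few: no erythroid and no T or NK cell marker passed the filter on low counts, with summed levels of at most 3.13 CPM in rep2 and 3.32 CPM in rep1. Mast cell markers (6 of 12 tested, 3 lower) summed to 316 to 732 CPM in rep2 and 339 to 787 CPM in rep1. Ighm, the 1 B cell marker of 13 tested, changed by 0.30 ± 0.046 (SE; adjusted p = 6.85e-05). Of 5 dendritic markers 2 rose and 1 fell, of 5 stromal markers likewise, and of 2 megakaryocyte markers 1 fell, while the 1 eosinophil marker tested did not pass. Fewer cells of a type and less RNA per cell cannot be told apart in bulk RNA.

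**Figure D5:**
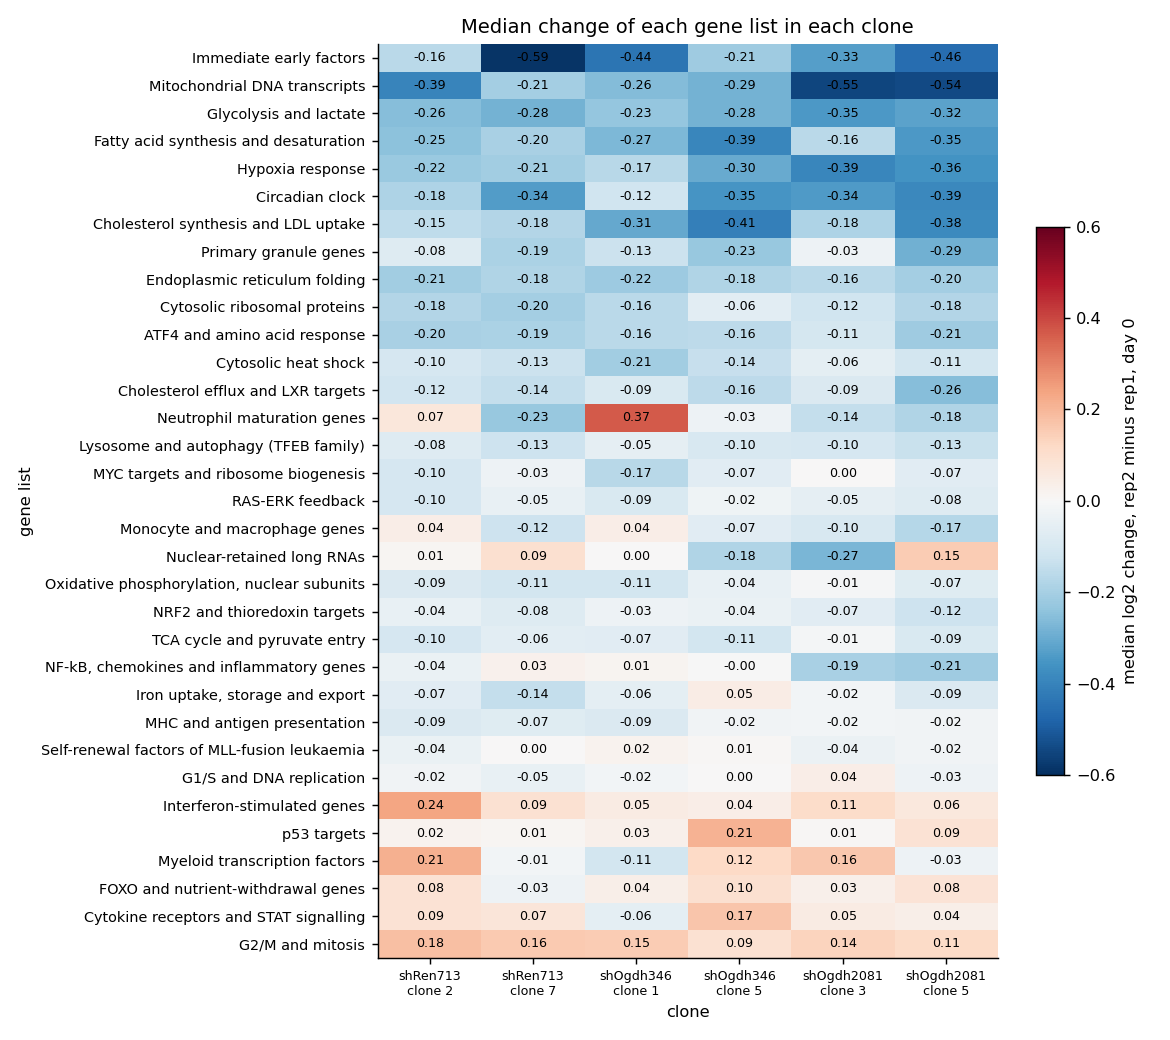
Median log2 rep2 minus rep1 change at day 0 of each of 33 gene lists (rows, at least 8 tested members) in each of the 6 clones (columns). The glycolysis row runs from -0.35 to -0.23 and the G2/M row from 0.089 to 0.18, while the neutrophil maturation row changes sign between clones.

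Whether the rep2 minus rep1 change differed between the 3 hairpins was tested as well. The test passed for 7 of 11331 genes (0.0618%), and 617 had an unadjusted p under 0.05. With 2 clones per hairpin and 3 residual degrees of freedom, it could miss differences. Of the 4 named by the rule, Slc16a3 fell by 0.46 with shOgdh346, by 1.45 with shOgdh2081 and by 1.12 with shRen713 on the log2 scale (adjusted p of the difference = 0.00194). Lcn2, a siderophore-binding protein of neutrophil granules, changed by 0.76 with shOgdh346, by -0.46 with shOgdh2081 and by -0.17 with shRen713 (adjusted p = 0.00362). Ltf, lactoferrin, changed on average by 1.94 with shOgdh346, by 0.59 with shOgdh2081 and by 0.43 with shRen713 (adjusted p = 0.00417). The 2 Ltf values went opposite ways with shOgdh2081 (1.32 in clone 3, -0.15 in clone 5). They also did with shRen713 (1.09 in clone 2, -0.22 in clone 7). mt-Nd6, a complex I transcript, changed by -0.16 with shOgdh346, by -0.70 with shOgdh2081 and by -0.27 with shRen713 (adjusted p = 0.0103). The other 3 were the predicted genes Gm23935 and Gm26917 and the ribosomal RNA mt-Rnr1, chosen after their values were seen. Over all clones, Lcn2 and Ltf did not pass (0.18 ± 0.26, adjusted p = 0.618 and 0.93 ± 0.44, adjusted p = 0.151), though Ltf passed in DESeq2 (adjusted p = 0.0446). mt-Nd6 changed by -0.38 ± 0.11 (SE; adjusted p = 0.0400), a call lost without shRen713 clone 2, shOgdh346 clone 1 or either shOgdh2081 clone (adjusted p of 0.0752 to 0.0952). It was also lost with thinned counts, the GC offset, no low-count filter and the length offset (adjusted p of 0.0586, 0.0620, 0.0857 and 0.0882).

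The 4 genes with the smallest interaction p were Tifab, Jun, Map3k1 and Klf10. Jun had a change of 0.23 ± 0.051 at day 4, opposite to that at day 0, Klf10 of 0.084 ± 0.055, Tifab of -0.010 ± 0.023 and Map3k1 of 0.0030 ± 0.029. Tifab lay at 114 to 558 CPM in rep2 and 116 to 565 CPM in rep1 at day 4, so that the groups overlapped. Jun lay at 6.80 to 52.8 CPM in rep2 and 5.21 to 45.96 CPM in rep1. The glycolysis list had a median of 0.011, the sterol list of -0.0037, the early genes of 0.069 and the G2/M list of -0.037 at day 4.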

How the data were processed

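The authors deposited whole-number counts per Ensembl gene for 53465 genes, with a transcript length and gene coordinates, which were not used in the main test. Per the submitters' processing notes, the build was mm10 (GRCm38) and the tools were STAR 2.6.1a, featureCounts 1.6.3, Trimmomatic 0.36 and FastQC 0.11.5. Per the labels' protocols, TruSeq libraries of poly(A)-selected RNA were sequenced from a single end; that text also names a human build and another counter, which the deposited mouse counts do not match. The strand setting is not given in the sources used here, so values of genes that overlap on opposite strands are uncertain.

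Genes were filtered with filterByExpr, scaled by TMM and fitted in edgeR 4.0.16 (R 4.3.3), with robust dispersions and the clone as a block, on the 12 day 0 libraries; 5 residual degrees of freedom were left, and the median prior was 20.4. The same fit was made for day 4, the day interaction used 24 libraries, and the hairpin difference used 2 coefficients. Each SE is the one the test statistic implies. CPM are on TMM-scaled sizes over 24 libraries. The pairing comes from the labels: deviations of rep2 and rep1 of a clone correlated across genes at 0.72 to 0.86, and with other clones at 0.51 at most. No day 0 pair was a repeat within counting noise, with a chi-square per gene of 6.78 to 10.3. For the day 4 pairs it was 1.60 to 2.94, nearer to counting noise. Whether the rep number stands for the same thing on both days is not given. Transcript features are from GENCODE M21. Nothing says that the rep libraries came from separate cultures. Scripts were tested on simulated data.

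Members and the 43 gene lists were chosen with earlier results of these data known. Named genes are the 12 largest rises and falls past the threshold of 0.05 for adjusted p that averaged 5 CPM or more and had 1 direction in 6 of 6 clones; the 5 most abundant past 2-fold per direction; up to 3 of smallest p per list; the 4 of smallest p for the day interaction and for the hairpin difference; and Ogdh. Predicted models were passed over. Genes outside the rule are said to be chosen after their values were seen; Fos and Junb are among them. Some genes that the rule names are not reported here.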

Additional observations from a re-analysis of the deposited data

Results flagged for a closer look

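Of 93 genes examined for it, 88 had a rep2 minus rep1 change that differed between day 0 and day 4 by the interaction test (adjusted p under 0.05), in a background of 32.1% of genes; most had been named for a large change at day 0. The values are the log2 change at day 0 minus that at day 4. Below 0, the farthest were Atf3 -3.74, Jun -2.3, Ccl3 -1.7, Aldoc -1.55, Klf10 -1.51, Lilr4b -1.51, Ccl4 -1.49, Bnip3 -1.45, Klf2 -1.4, Ciart -1.39, Klf11 -1.37, Iqcg -1.34, Dusp1 -1.3, Gpnmb -1.3, Egr1 -1.29, Fosb -1.25, Hist1h1c -1.25, Klf6 -1.24 and Arrdc3 -1.15. Next came Slc16a3 -1.14, Trib3 -1.13, Pim1 -1.11, Arrdc4 -0.96, Spp1 -0.95, Scd2 -0.81, Bhlhe40 -0.78, Txnip -0.74, Apoe -0.74, Gadd45a -0.73, Pmaip1 -0.73, Mpo -0.72, Insig1 -0.72, Pdk1 -0.7, Pgk1 -0.69, Slc7a11 -0.67, Ddit3 -0.62, Ldha -0.57 and Nsdhl -0.54. Smaller differences below 0 were those of Slc3a2 -0.54, Srebf1 -0.52, Runx2 -0.51, Eno1 -0.5, Rel -0.48, Herpud1 -0.48, Odc1 -0.4, Csf3r -0.34, Calr -0.33, Gapdh -0.3, mt-Nd4 -0.3, mt-Cytb -0.29, Acly -0.28, Pkm -0.27, Hspa5 -0.27, Srgn -0.23, Rps15a -0.21, Nop58 -0.19 and Rpl4 -0.14. Above 0 were Gpr171 1.26, Tifab 1.25, Zfp60 1.21, G2e3 1.19, Zfp52 1.17, Tmem150b 1.14, B3galt5 1.13, D11Wsu47e 1.13, Cftr 1.12, Cd69 1.1, Ptgir 1.03, Map3k1 1.01, Bsn 0.99, Cx3cr1 0.95, Myc 0.89 and Phlda3 0.75. They were followed by Cebpg 0.67, Neat1 0.64, Parp14 0.63, Aspm 0.61, Cxcr2 0.6, Tnf 0.6, Kif20b 0.58, Ccnf 0.55, Il6st 0.53, Dusp7 0.45, Il6ra 0.42, Arntl 0.42, Fli1 0.38, Ighm 0.31 and Irf8 0.27.

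The change differed between hairpins for Slc16a3, Lcn2, Ltf and mt-Nd6, with adjusted p of 0.00194, 0.00362, 0.00417 and 0.0103.

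In 7 of 104 sets of 6 paired differences, 1 clone stood apart from the other 5; chance gives about 1 in 20. shOgdh2081 clone 3 was the one for Neat1 (0.298, the others 0.96 to 1.27), Ogdh (0.371, the others 0.026 to 0.12) and Srgn (-0.504, the others -0.25 to -0.13). The others were shRen713 clone 2 for Bsn (0.822, the others 1.14 to 1.3), shRen713 clone 7 for Pim1 (-1.301, the others -1.02 to -0.88), shOgdh346 clone 5 for Phlda3 (1.659, the others 0.32 to 0.76) and shOgdh346 clone 1 for Rel (-0.265, the others -0.59 to -0.50). Values are log2 rep2 minus rep1.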

How the results depend on the processing

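The 16 other fits at day 0 were another scaling (RLE, upper quartile), other filters, DESeq2, thinned counts, a length or GC offset, 1 fit over 24 libraries, no replicate block, and each clone left out. Without the replicate block, 1104 genes were higher and 895 lower. Single genes were followed over these fits for 93 genes, of which 91 had passed, and not for the other genes given above. Of the 91, 31 were no longer called without the block. Leaving out 1 clone gave 2151 to 2448 higher and 2115 to 2495 lower at day 0, 328 to 796 higher and 101 to 473 lower at day 4, and 1712 to 1954 above and 1560 to 1812 below 0 for the day difference. DESeq2 called 1710 higher and 1711 lower at day 0, 238 higher and 97 lower at day 4, and 1313 above 0 for the day difference. Of the clones, leaving out shOgdh2081 clone 3 lowered the calls at day 4 most (328 higher, 101 lower); without shRen713 clone 7, shOgdh346 clone 1 and shOgdh2081 clone 5, 135, 197 and 187 were lower. Without the replicate block the members lower were 2 of 24 sterol, 1 of 13 fatty acid, 12 of 23 glycolysis, 13 of 40 amino acid response, 8 of 28 early and 37 of 78 ribosomal protein genes, and 20 of 55 G2/M genes were higher. The cause of these lower counts was not tested; a fit without 1 clone holds fewer samples. None of the 91 genes changed sign in these fits. Lcn2, which had not passed, did without shOgdh346 clone 1 (-0.103, and up to 0.3206 without 1 of the other clones). The GC offset, and the length offset and DESeq2 for lists, were added after seeing the data. List medians near 0 changed sign for 7 of 37 lists: NF-kB within shRen713 (0.0247); interferon with no replicate block (-0.0054) and without 1 clone (-0.0179 to 0.1418); FOXO within shRen713 (-0.0159); self-renewal within shRen713 (0.0007) and shOgdh346 (0.0019); myeloid factors without 1 clone (-0.0022 to 0.0749); neutrophil genes with the length offset (0.0343), without 1 clone (-0.1205 to 0.0576) and within shOgdh346 (0.0535); and nuclear long RNAs without 1 clone (-0.1815 to 0.0243) and within shOgdh2081 (0.0842). Depth limits low genes: Atf3 had a sum of 24 counts in rep2.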
